A study of Homo sapiens with 6 samples.

Results

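A set of 6 very long human genes that coincide with common fragile sites was examined in a list of chromatin loops from HAP1 cells: WWOX, FHIT, MACROD2, CNTNAP2, IMMP2L and LRP1B. A loop was taken as belonging to a gene when the midpoint of at least 1 of its anchors lay inside the gene's hg19 interval. This gave 79 of the 46849 loops of the list, over 9.78 Mb of gene: 19 in CNTNAP2, 17 in IMMP2L, 16 in LRP1B, 13 in FHIT, 7 in WWOX and 7 in MACROD2. The intervals differed from the lengths of the same genes in RefSeq GRCh38.p14 by at most 2.18 kb. WWOX runs from 78.133 to 79.247 Mb on chromosome 16 and FHIT from 59.735 to 61.237 Mb on chromosome 3. MACROD2 runs from 13.976 to 16.034 Mb on chromosome 20 and LRP1B from 140.989 to 142.890 Mb on chromosome 2. Chromosome 7 holds both IMMP2L, from 110.303 to 111.203 Mb, and CNTNAP2, from 145.813 to 148.118 Mb. FHIT, IMMP2L and LRP1B are read from the minus strand, so that their 5′ end is the higher coordinate.

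HAP1 is an established human cell line derived from a chronic myeloid leukaemia line with a near-haploid genome; here unmodified cells that had become diploid were sorted by DNA stain. Micro-C measures which stretches of DNA lie close together in the nucleus, by crosslinking chromatin, cutting it to nucleosomes with micrococcal nuclease and ligating neighbouring ends. All 6 replicates form 1 group, no label says whether they were separate cultures, and the list does not tell them apart, so no value below has a replicate error and no difference between genes could be tested against one. For each loop the list gives the contacts observed where its 2 anchors meet and the contacts expected from the ring of map around that point, called the donut. The median loop of the whole list had 31 observed contacts and the median loop of these genes 22 (range 11 to 101), so intervals given for single loops are wide, and they cover counting error only.

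Common fragile sites are regions where gaps and breaks appear on metaphase chromosomes after mild replication stress. Many of them lie in very long genes, whose replication is late and sparse in origins and whose transcription takes much of a cell cycle. Deletions inside these genes are frequent in cancer cell lines, and which fragile site breaks most differs between cell types. A loop joins 2 anchors; in mammalian cells many anchors are bound by CTCF, at which cohesin stops, and others are promoters and enhancers.

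WWOX, which encodes a WW-domain oxidoreductase and lies at the fragile site FRA16D, had few loops and the highest contact ratios. Its 7 loops had a median ratio of observed to expected contacts of 12.2, with a range of 4.93 to 88.8 (exact order-statistic 95% interval of the median over loops, 4.93 to 88.8). The medians of the other 5 genes lay between 2.56 and 3.96, and that of the whole list was 3.55. A ratio of 10 or more was found for 5 of the 7 WWOX loops. In the other 5 genes together 2 of 72 loops (2.78%) reached this value, and in the whole list 5.65% did. Over all 6 genes the count was 7 of 79 (8.86%), so it exceeded the list's share only through WWOX.

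The strongest of these loops joined chr16:78565001-78570000 and chr16:78790001-78795000, 2 sites inside WWOX 225 kb apart. It had 101 observed contacts (exact Poisson 95% interval 82.3 to 122.7) where 1.14 were expected, a ratio of 88.8 (72.3 to 107.9, with the expectation held fixed). The ratio was 168 against the lower-left surroundings, 81.9 against the horizontal and 72.9 against the vertical ones. It had been merged from 12 significant pixels, and no other anchor of the list lay between its own. The list alone does not show whether the DNA between these sites is intact in the cells: the contact map and read coverage were not analysed here, so a loop and a join of the DNA itself cannot be told apart. The pixel was set beside the 1019 loops of 5 kb anchors with spans of 225 to 240 kb. Among these its ratio ranked 2, behind one of 216, its observed count ranked 34 and its expectation was the 2nd lowest. Against the medians of these loops, the count was 3.61-fold higher and the expectation 5.16-fold lower. Of the same 1019 loops, 51 (5.00%, exact binomial 95% interval 3.75 to 6.53%) likewise had no anchor between their own. Over the whole list the ratio ranked 90 of 46849, and among the 28275 loops no longer than this one it ranked 4.

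The remaining WWOX loops rested on fewer contacts. A 110 kb loop from chr16:78155001-78160000, 22 kb into the gene, to chr16:78265001-78270000 had 39 contacts where 3.75 were expected, a ratio of 10.4. From the same first anchor, a 645 kb loop to chr16:78800001-78805000 had 14 contacts and a ratio of 16.4. Another loop from there ran 2345 kb, past the 3′ end, to chr16:80500001-80505000, with 12 contacts and a ratio of 12.7. An 1100 kb loop from chr16:78535001-78540000 to chr16:79635001-79640000 had 15 contacts and a ratio of 12.2. Each of the last 3 was a single pixel with an expectation of 0.852 to 1.23 contacts, so their ratios turn on small numbers. The lowest ratios of the gene, 4.93 and 5.60, belonged to loops of 1500 and 830 kb whose far anchor was chr16:79630001-79640000, beyond the 3′ end. The 1500 kb loop, with 28 contacts, started at chr16:78130001-78140000, which holds the 5′ end. Of the 7 loops, 4 left WWOX, each over its 3′ end. A further 3 loops reached lower coordinates from chr16:78130001-78135000, which holds the 5′ end but has its midpoint 0.5 kb outside the interval, so the rule did not count them. They spanned 95, 420 and 860 kb, with 22, 9 and 13 contacts and ratios of 4.90, 4.33 and 7.44. Counted as WWOX loops, they would leave 5 of 10 at a ratio of 10 or more and a median of 8.92.

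WWOX loops were long, with a median span of 830 kb against 190 kb for all 79 and 160 kb for the list. Each loop was therefore also set against the median of list loops of the same anchor width and like span. All 7 WWOX loops lay above that median, by 0.77 on the log2 scale at the middle loop. For MACROD2 this value was 0.29 over all loops and -0.16 over those with 5 kb anchors alone, so it had no stable direction. For FHIT, CNTNAP2, IMMP2L and LRP1B it was -0.18, -0.09, -0.20 and -0.21. A log2 excess of 1 or more was reached by 4 of 79 loops (5.06%), of which 3 were in WWOX and 1 in FHIT, against 7.03% of the list. Outside WWOX the genes thus had contact ratios near or slightly under those of loops of like span.

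**Figure D1:**
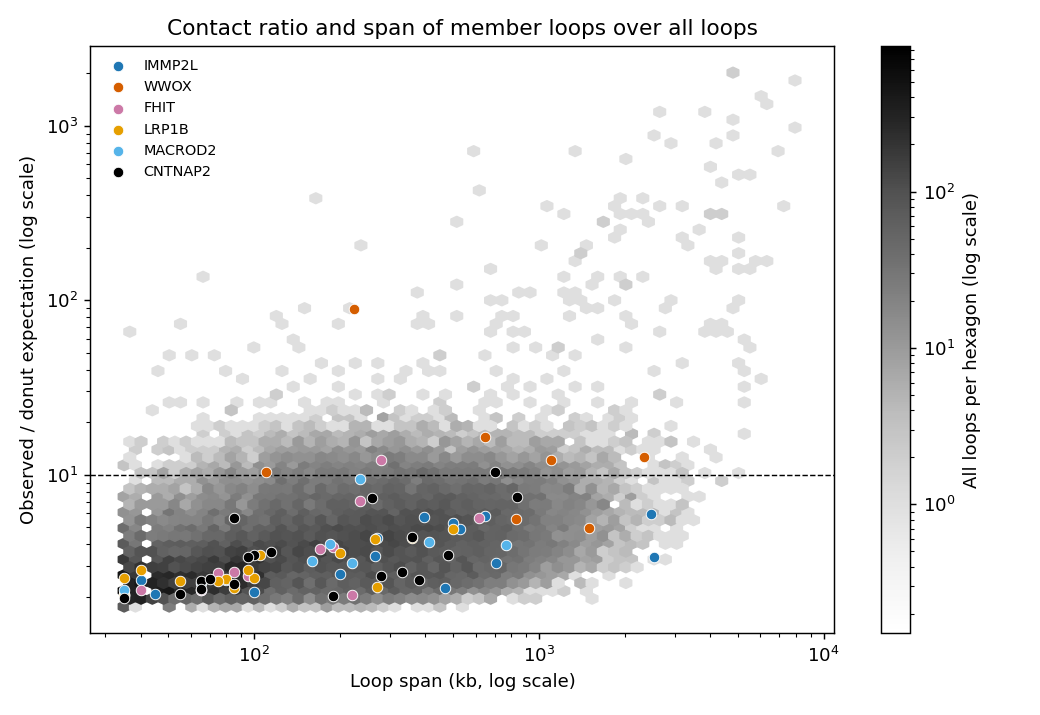
Ratio of observed to donut-expected contacts against loop span, both on log axes. Grey hexagons count all 46849 loops (log scale), coloured points are the 79 loops of the 6 genes, and the dashed line marks a ratio of 10; the WWOX loop at 225 kb stands at 88.8, above every other coloured point.

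In WWOX the high ratios went with low expectations rather than with high counts. Its expected contacts were at a median of 0.438-fold those of loops of like span (-1.19 on the log2 scale), whereas its observed contacts were -0.09 on that scale. Of its 5 loops with a ratio of 10 or more, all had an expectation below that of loops of like span, and 4 also had a count below theirs. These 4 counts were 39 against a like-span median of 40, 15 against 16, 14 against 19 and 12 against 16. Each median lay inside the Poisson interval of the count, so the counts were ordinary rather than low. The 225 kb loop alone had a count above. The other 2 loops of such ratio, in FHIT and CNTNAP2, each had more contacts than loops of like span. Expectations were low in the other genes too. They lay below the like-span median in 64 of 79 loops (81.0%), against 50.0% of the list by construction, and the median was 0.589-fold in MACROD2 and 0.706-fold in LRP1B. The gene's median lay below that of both flanks of equal length in 5 of 6 genes, all but IMMP2L. A loop that ran from a gene into its flank was counted in both, so the gene and flank medians are not separate. The median of the IMMP2L 3′ flank, -0.613 on the log2 scale, was that of a loop counted in the gene too. What part the low expectation has in the WWOX ratios was not tested, nor was the part of the caller, which lists no loop of fewer than 8 contacts.

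**Figure D2:**
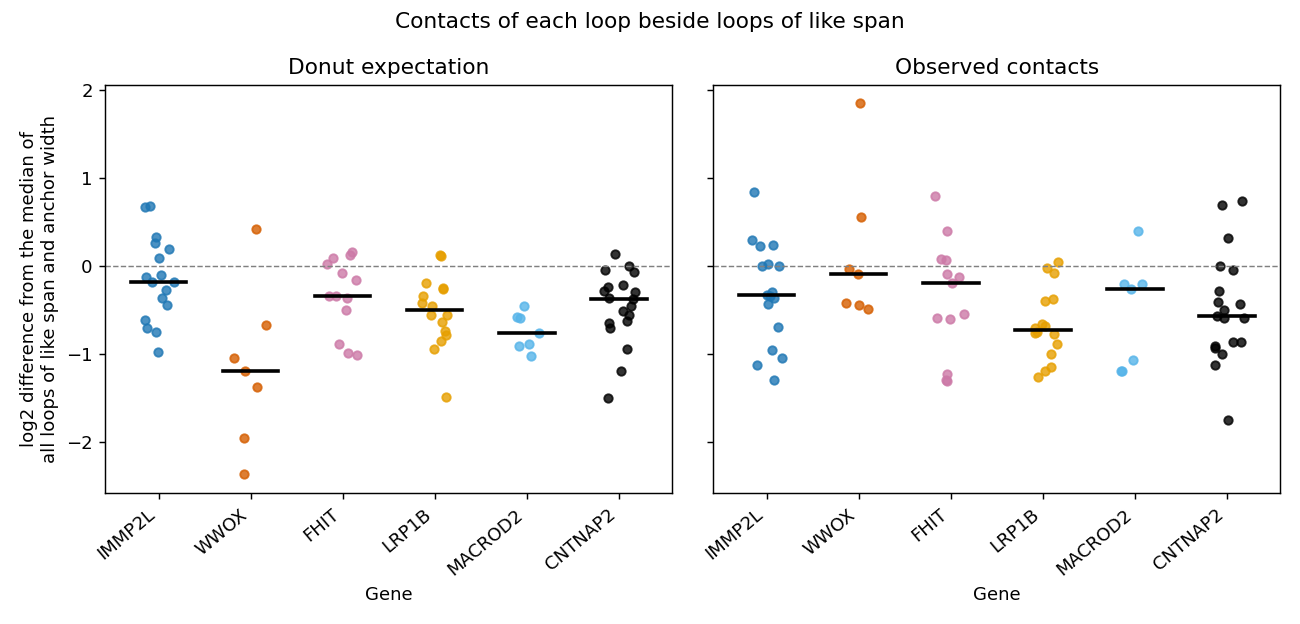
Donut expectation (left) and observed contacts (right) of each loop as the log2 difference from the median of list loops of the same anchor width and like span; each point is a loop, bars are gene medians and the dashed line is 0. The left-hand medians of all 6 genes are below 0 and that of WWOX, -1.19, is the lowest, while on the right the WWOX median is -0.09.

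Outside WWOX, 2 loops had a ratio of 10 or more. In FHIT, whose product hydrolyses diadenosine triphosphate and which lies at FRA3B, a 280 kb loop joined chr3:59560001-59565000 and chr3:59840001-59845000 with 47 contacts where 3.90 were expected, a ratio of 12.1 (8.86 to 16.0). In CNTNAP2, which encodes a neurexin-family adhesion protein of axons, a 700 kb loop joined chr7:147960001-147965000 and chr7:148660001-148665000 with 30 contacts where 2.89 were expected, a ratio of 10.4 (7.01 to 14.8). Each of these 2 loops ran from inside the gene to beyond its 3′ end. Just under the limit lay a MACROD2 loop of 9.48 (6.67 to 13.1), and the nearest above it was the CNTNAP2 loop. Taking the highest of the 4 expectations instead of the donut left 1 loop at 10 or more, the 225 kb loop of WWOX, and the lower-left expectation left 4.

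The genes held few loop ends for their length. Together they had 136 ends in 9.78 Mb, or 13.9 per Mb, against 32.0 per Mb over the covered genome. MACROD2, which encodes a hydrolase that removes single ADP-ribose groups from proteins, had 5.83 ends per Mb and WWOX 8.98. CNTNAP2, FHIT and LRP1B had 14.3, 15.3 and 16.8, and IMMP2L had 28.9. All 6 were below the list and below their own chromosomes, which had 26.0 to 34.1 ends per Mb. Of the 6, 4 were also below both flanks of equal length. In WWOX the flanks had 20.6 and 18.9 per Mb, and in MACROD2 22.4 and 21.9. The exceptions were CNTNAP2, whose 5′ flank had only 11.3 per Mb and whose 3′ flank had 42.5, and IMMP2L, whose 3′ flank had 15.6 and whose 5′ flank had 63.3. Neighbouring ends are not independent, and with 1 list the differences have no test.

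**Figure D3:**
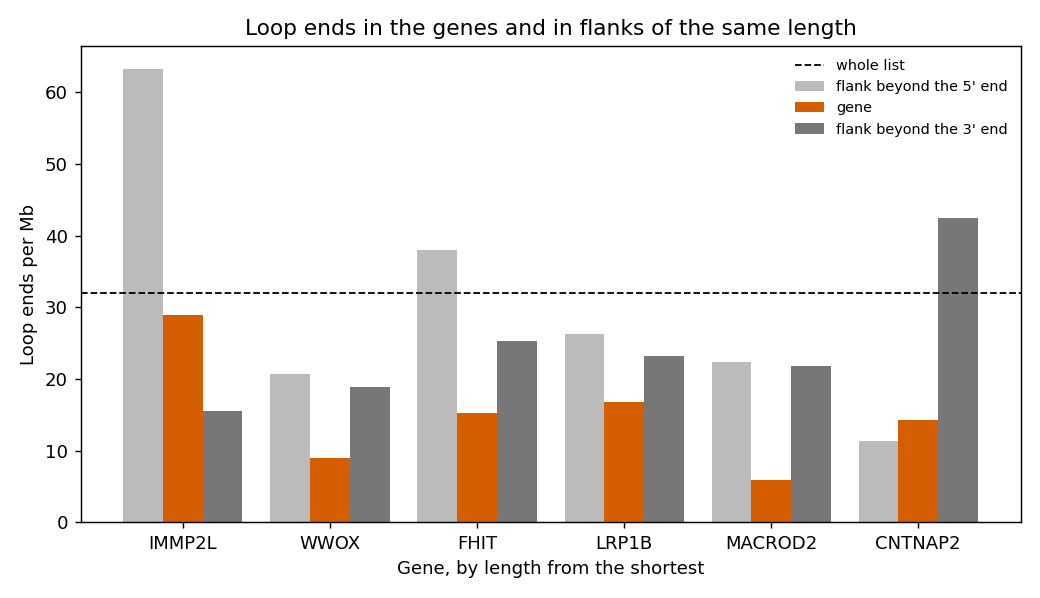
Loop ends per Mb in each gene (orange) and in the flanks of the same length beyond its 5′ end (light grey) and 3′ end (dark grey), genes ordered by length; the dashed line is the whole list at 32.0 per Mb. All 6 orange bars are under the line, and in 4 genes they are under both flanks.

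Anchors were unevenly placed within the genes. In MACROD2 no anchor lay between 14040001 and 15470000 on chromosome 20, a stretch of 1430 kb that makes up 69.5% of the gene and starts 64 kb from its 5′ end. Of 47474 spaces between neighbouring anchors of the list, 51 (0.107%) were at least as long. The 47474 include spaces of no length between anchors that adjoin, so the share among true anchor-free stretches is higher. No loop of the list spanned the MACROD2 stretch, and 6 of the 7 MACROD2 loops lay on its 3′ side. The next longest, from 78810001 on chromosome 16, covered the last 437 kb of WWOX (39.2%) and went on beyond the gene to 640 kb in all. Here 4 of the gene's loops passed over the stretch. CNTNAP2 had an anchor-free stretch of 420 kb (18.2% of the gene) and LRP1B of 360 kb (18.9%), neither of them spanned by a loop. Those of FHIT and IMMP2L were shorter, at 165 and 115 kb.

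**Figure D4:**
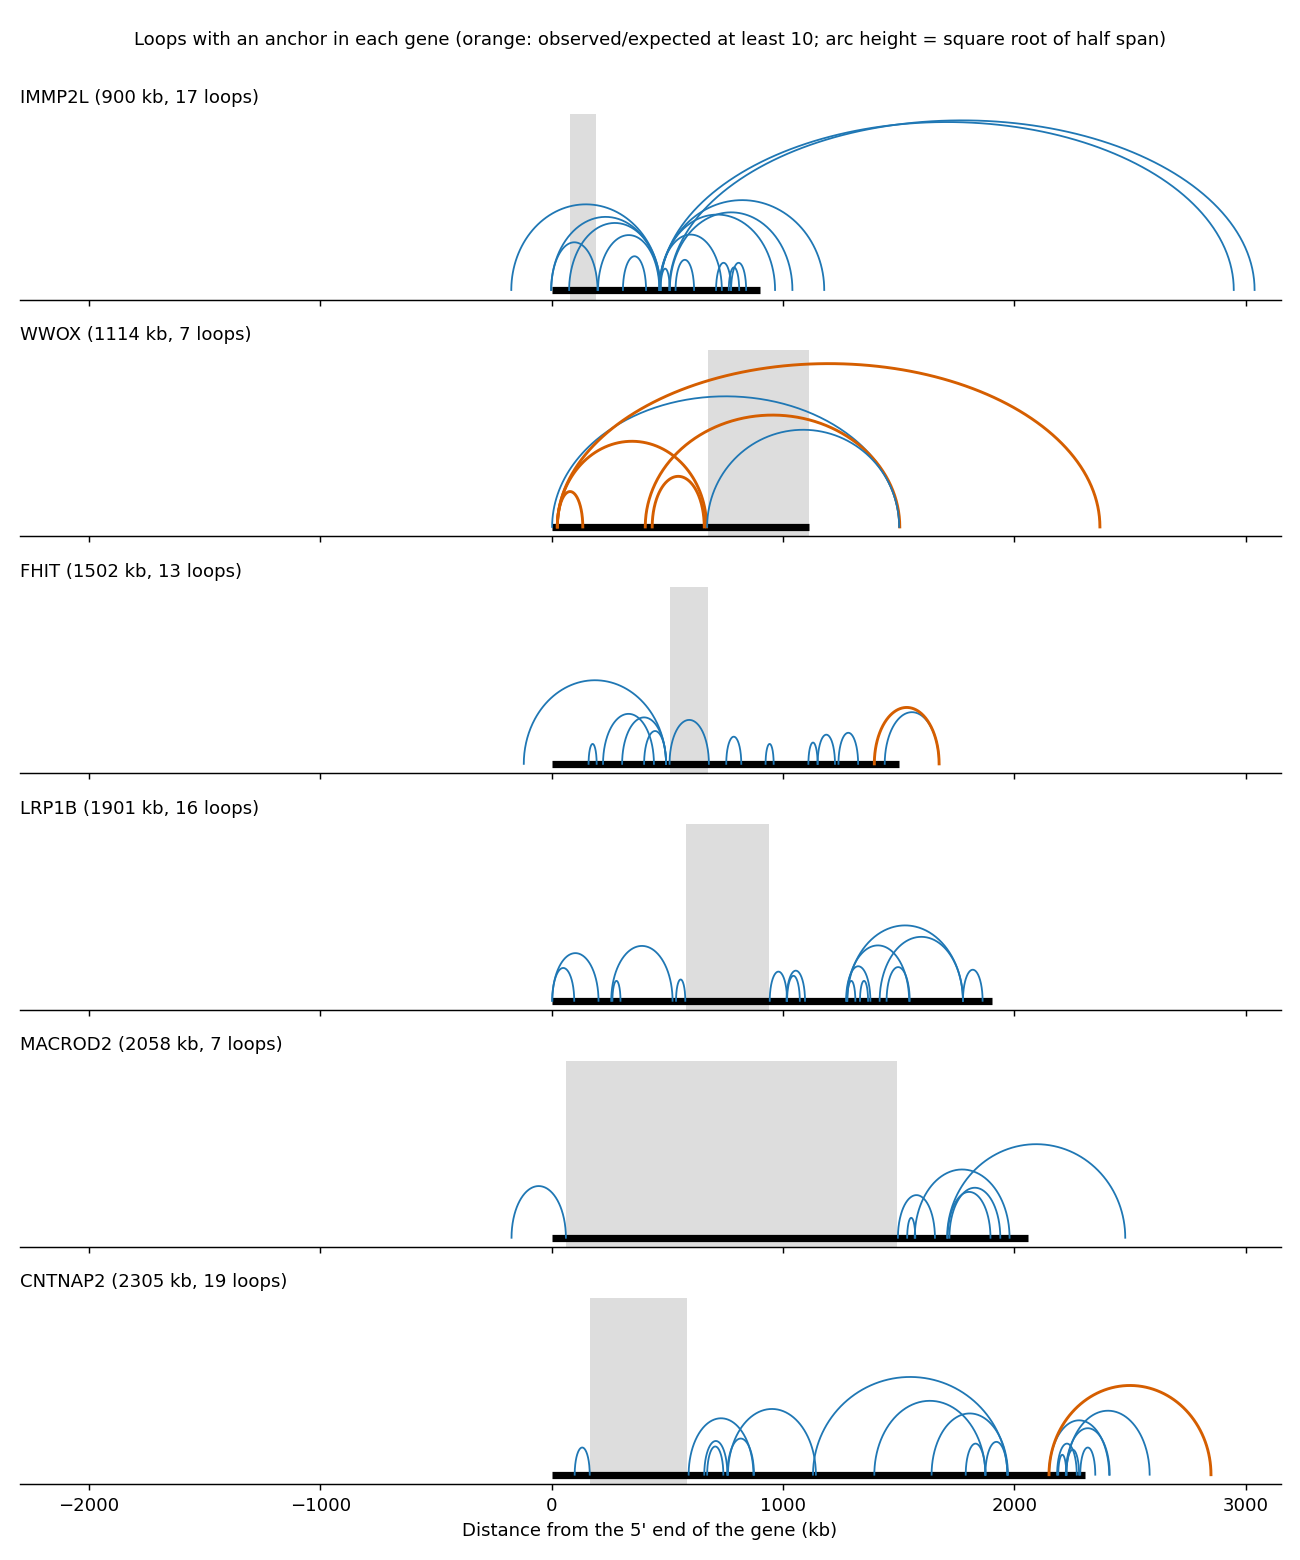
Loops of the 6 genes as arcs over the gene (black bar), against distance from its 5′ end in kb; arc height is the square root of the arc's radius in kb, orange arcs have a ratio of 10 or more and grey bands mark the longest anchor-free stretch. The band of MACROD2 takes 69.5% of the gene and IMMP2L loops meet at 1 point mid-gene.

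In IMMP2L, which encodes a subunit of the inner mitochondrial membrane peptidase, loops met at a single 10 kb anchor once overlapping anchors were merged. The site chr7:110730001-110740000, 52.0% along the gene, took part in 9 of its 17 loops, 5 towards lower and 4 towards higher coordinates. Their spans ran from 40 to 2480 kb and their ratios from 2.24 to 5.98. Those with 5 kb anchors ended in either chr7:110730001-110735000 or the adjoining chr7:110735001-110740000, which the 10 kb anchors bridged. The loops to chr7:110235001-110240000, chr7:111000001-111005000 and chr7:111200001-111210000 had highest q-values of 0.316, 0.423 and 0.485 against their surroundings, above the limit of 0.1 used below. One of the 9 was a 2480 kb loop to chr7:108250001-108260000, with 27 contacts where 4.52 were expected. A second long loop, of 2530 kb, ended nearby, from chr7:108160001-108170000 to chr7:110690001-110700000, with 15 contacts and a ratio of 3.35. That loop was weakly supported: the highest of its q-values against the 4 surroundings was 0.506. By ratio it ranked 165 of 178 loops of the same anchor width and like span. The strongest count of the gene, 59 contacts, joined the 2 neighbouring IMMP2L sites at which these long loops ended, over 40 kb. Of the IMMP2L loops, 5 left over the 3′ end and 3 had an anchor midpoint beyond the 5′ end, but 2 of these 3 ended in the anchor that holds the 5′ end. A further 2 loops in the list spanned the whole gene. No loop had both anchors wholly beyond the ends of any of the other 5 genes. The 1500 kb WWOX loop, however, ran from the anchor that holds the 5′ end to beyond the 3′ end.

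LRP1B, which encodes a large endocytic receptor of the LDL receptor family, had no loop that left the gene. All 16 had both anchors inside it (100%, exact binomial 95% interval 79.4 to 100%). Over the 6 genes, LRP1B included, 57 of 79 loops did (72.2%). The share was 76.9% in FHIT (46.2 to 94.96%), 73.7% in CNTNAP2 (48.8 to 90.9%) and 71.4% in MACROD2 (29.0 to 96.3%). In IMMP2L it was 52.9% (27.8 to 77.0%) and in WWOX 3 of 7 (42.9%, 9.90 to 81.6%). Only the IMMP2L interval lay wholly below that of LRP1B, and this rests on the midpoint rule. Of the IMMP2L loops counted as leaving, 2 ended in the anchor that holds the 5′ end, whose midpoint lies 2 kb outside. The anchor at the 5′ end of LRP1B counted as inside. The interval with those 2 loops counted as inside was not computed. The intervals take loops as independent, though several LRP1B loops shared an anchor, and no difference between genes was tested. The shares also depend on gene length and loop span, which were not allowed for. IMMP2L is 900 kb long with a median span of 270 kb, WWOX 1114 kb with 830 kb, and LRP1B 1901 kb with 90 kb. LRP1B loops were short, with a median span of 90 kb, and had a median ratio of 2.56 (2.26 to 3.55). The highest ratio was 4.87, for a 500 kb loop between chr2:141110001-141115000 and chr2:141610001-141615000 with 16 contacts. The highest count was 70, for an 80 kb loop between chr2:141790001-141800000 and chr2:141870001-141880000, where 27.9 were expected. At chr2:141610001-141620000, 4 LRP1B loops met, all of them reaching towards the 3′ end.

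FHIT and CNTNAP2 had mostly short loops inside the gene, 10 of 13 and 14 of 19 with both anchors inside, and median spans of 95 and 115 kb. In FHIT 3 loops met at chr3:60740001-60745000, all reaching towards the 5′ end, and the longest of them ran 615 kb and left the gene, with 20 contacts and a ratio of 5.67. The 2 loops that left FHIT over its 3′ end shared the anchor chr3:59560001-59565000 outside the gene and had ratios of 7.04 and 12.1, the highest of the gene. In CNTNAP2 the highest count was 52, for an 85 kb loop between chr7:147600001-147605000 and chr7:147685001-147690000 where 9.19 were expected, a ratio of 5.66. All 5 loops that left CNTNAP2 did so over the 3′ end. At chr7:148030001-148040000, 96.4% along the gene, 4 CNTNAP2 loops met, with ratios of 1.97 to 4.40. The longest CNTNAP2 loop ran 840 kb inside the gene, from chr7:146940001-146945000 to chr7:147780001-147785000, with 14 contacts and a ratio of 7.48.

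MACROD2 had 1 loop at its 5′ side. It joined chr20:13800001-13805000, outside the gene, to chr20:14035001-14040000 over 235 kb, with 37 contacts where 3.90 were expected. This was the loop of ratio 9.48, the highest of the gene. The other 6 had counts of 14 to 33 and ratios of 2.18 to 4.13. The longest, of 770 kb, left over the 3′ end with 20 contacts.

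The 5′ end of the gene lay inside an anchor in 3 of the 6 genes, WWOX, IMMP2L and LRP1B. In MACROD2, CNTNAP2 and FHIT the nearest anchor inside the gene was 59, 97 and 157 kb away. No 3′ end lay in an anchor, and 1 had an anchor inside the gene within 25 kb, that of CNTNAP2 at 18 kb. Anchors wholly beyond the gene ends were not looked at for these distances. In 1 place, in IMMP2L, 3 anchors were joined pairwise by loops. They were the mid-gene meeting point, chr7:111000001-111010000 and chr7:111200001-111210000, which holds the 5′ end. The meeting point's loop to chr7:111000001-111010000 had 14 contacts and a highest q-value against its surroundings of 0.423. Its loop to chr7:111200001-111210000 had 26 contacts and a highest q-value of 0.485. Neither met the q-value limit used for support below, whereas the remaining side did, at 0.00118. The pairwise joining also rests on overlapping anchors having been merged.

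The 250 bases before the start are shown for 2 genes whose 5′ end is in an anchor, IMMP2L and WWOX, and for CNTNAP2, whose is not. They come from RefSeq on GRCh38.p14, which is not the build of the loops, and 5 of the 6 genes were matched in that table. The stretches are chr7:111562493-111562742 on the minus strand, chr16:78099404-78099653 on the plus strand and chr7:146116551-146116800 on the plus strand. Capitals mark the GC box GGGCGG, the core to which Sp1-family factors bind, on either strand.
IMMP2L: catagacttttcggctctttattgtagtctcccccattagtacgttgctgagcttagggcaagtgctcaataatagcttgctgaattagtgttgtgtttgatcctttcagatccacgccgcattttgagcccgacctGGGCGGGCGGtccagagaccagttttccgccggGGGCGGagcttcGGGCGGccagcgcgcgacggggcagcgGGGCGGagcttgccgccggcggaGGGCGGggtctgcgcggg
WWOX: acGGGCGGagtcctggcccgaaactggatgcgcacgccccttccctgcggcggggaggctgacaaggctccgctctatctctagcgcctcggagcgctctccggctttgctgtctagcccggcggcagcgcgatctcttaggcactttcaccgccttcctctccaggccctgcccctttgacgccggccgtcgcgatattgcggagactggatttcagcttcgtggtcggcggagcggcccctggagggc
CNTNAP2: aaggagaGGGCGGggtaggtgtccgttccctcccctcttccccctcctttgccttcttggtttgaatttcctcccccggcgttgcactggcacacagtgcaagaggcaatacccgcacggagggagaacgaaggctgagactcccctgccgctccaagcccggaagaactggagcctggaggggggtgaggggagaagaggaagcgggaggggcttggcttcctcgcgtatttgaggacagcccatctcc
The IMMP2L stretch holds 6 GC boxes, some of which overlap, and 24 CpG dinucleotides, that of WWOX 1 box and 27 CpG, and that of CNTNAP2 1 box and 12 CpG. The CpG count did not follow whether the 5′ end lay in an anchor: MACROD2, whose 5′ end is in none, has 29 CpG and 2 boxes before its first start. Of 35116 such stretches in the table, 42.6% hold at least 1 GC box, and the median holds 11 CpG. With 3 genes shown this is a description of these stretches and of nothing more.

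Support in the list was weaker for these loops than for the list as a whole. The q-value against each of the 4 surroundings was at or below 0.1 for 44 of the 79 (55.7%), against 72.0% of all loops. All 7 WWOX loops met this limit, as did 8 of 13 in FHIT, 10 of 17 in IMMP2L, 4 of 7 in MACROD2, 8 of 19 in CNTNAP2 and 7 of 16 in LRP1B. A single pixel was all that 7 loops (8.86%) rested on, 3 of them in WWOX, against 8.94% of the list.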

How the data were processed

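Loops were taken from 1 list for all 6 Micro-C replicates. Per the file headers it was written by juicer_tools 1.22.01; the submitters' processing notes name BWA and hg19 without a role. The pooling, the depth of sequencing and the settings of the caller were not given in the sources used here. Observed contacts were deposited by the authors as raw counts, with 4 expected values on the count scale, which need not be whole, and q-values against each surrounding. The deposited count of merged pixels was used as given. Membership was by anchor midpoint in the 6 gene intervals; a further interval is not reported here; overlapping anchors were merged. Like-span medians used 40 bins of span for each anchor width (5 or 10 kb). Loop ends per Mb used the length from the first to the last loop of each chromosome. Intervals are exact Poisson, binomial or order-statistic. Loops named are the highest ratio, highest count and longest of each gene, all WWOX loops, and some of the anchors shared by several loops. Genes, limits and lists were chosen with earlier results of these data known. No hg19 genome or annotation was used, so exons, introns and neighbouring genes were not placed; strand came from RefSeq GRCh38.p14 for 5 genes and general knowledge for LRP1B. Functions were tested on simulated data. The tools were pandas 2.3.3, matplotlib 3.10.9, scipy 1.17.1 and numpy 2.4.6 under Python 3.11.15; coordinates are 1-based.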

Additional observations from a re-analysis of the deposited data

How the results depend on the processing

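Of 26 alternatives for the main results, 20 stayed within 1.5 times the count or within the interval of the value. The 79 loops became 44 when all 4 q-values had to be at or below 0.1. The median ratio, 3.13, was 4.31 under that limit. The 7 loops with a ratio of 10 or more became 18 at a limit of 5, 4 against the lower-left expectation, 1 against the highest of the 4 expectations and 2 without WWOX. Of 138 values for single genes 21 moved and 1 changed direction: the MACROD2 median relative to loops of like span, 0.29, was -0.16 with 5 kb anchors alone. Requiring the whole anchor inside gave 78 loops and any overlap 82; these and the values without WWOX were chosen after seeing the data. The longest anchor-free stretch of IMMP2L was 260 kb with 5 kb anchors alone, against 115 kb. Leaving out a replicate could not be done, because the list pools all 6. Depth limits single loops: the list holds none with fewer than 8 contacts, so a missing loop was not detectable at this depth rather than absent.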
